A study of Mus musculus with 8 samples.

Results

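The astrocyte lineage genes described here are 10 genes of mature and maturing astrocytes: Slc6a11, Slc1a2, Aqp4, Gja1, Gjb6, Gfap, S100b, Sparcl1, Aldh1l1 and Aldoc. They were chosen by name, as 10 of the 55487 genes of the deposited table, because they mark this cell lineage. Their levels were measured by RNA sequencing in mouse cortex taken late in gestation (E18.5), in 4 libraries labelled Upf2cKO and 4 control libraries. The Upf2cKO embryos carried 2 floxed Upf2 alleles (Upf2 fl/fl) together with Emx1-Cre, which expresses the recombinase from the Emx1 locus: in radial glia of the dorsal telencephalon and hence in the excitatory neurons and most glia of the cortex, but not in interneurons, microglia or vessels. Of the controls, 3 were Upf2 fl/fl and 1, control 2, was Upf2 fl/+, and no control is labelled as carrying Cre. Upf2 encodes a core factor of nonsense-mediated decay, the pathway that degrades transcripts with a stop codon in an aberrant position. The tissue was the whole cortex, so cells outside the Emx1 lineage were part of every library.

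In the rodent cortex, radial glia first make neurons and then, around birth, turn to making astrocytes. Cytokine and BMP signals, acting through STAT and SMAD proteins, and factors such as SOX9 and the nuclear factor I proteins open this programme. Immature astrocytes share many transcripts with radial glia and acquire transporters, water and gap-junction channels only over the following weeks, so several of the genes below are known to be low at birth.

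The promoter windows of 3 genes are shown because Slc6a11 was lower in every Upf2cKO library than in every control, Gfap has the best known astrocyte promoter and S100b had the lowest level of the tested genes. Each runs from 250 bases before to 50 bases after the annotated start (RefSeq, build GRCm38.p6), written in the direction of transcription. They lie at chr6:114130991-114131290 on the plus strand for Slc6a11, at chr11:102897151-102897450 on the minus strand for Gfap and at chr10:76253586-76253885 on the plus strand for S100b. Capitals mark matches, on either strand, to the STAT motif TTCNNNGAA or the nuclear factor I half-site TTGGC, which reads GCCAA on the other strand.
Slc6a11: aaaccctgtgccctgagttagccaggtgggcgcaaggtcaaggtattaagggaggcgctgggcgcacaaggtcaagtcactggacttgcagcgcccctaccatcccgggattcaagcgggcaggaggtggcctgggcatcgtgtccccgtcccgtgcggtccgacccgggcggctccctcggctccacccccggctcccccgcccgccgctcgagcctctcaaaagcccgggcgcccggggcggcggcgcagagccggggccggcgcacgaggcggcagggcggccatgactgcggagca
Gfap: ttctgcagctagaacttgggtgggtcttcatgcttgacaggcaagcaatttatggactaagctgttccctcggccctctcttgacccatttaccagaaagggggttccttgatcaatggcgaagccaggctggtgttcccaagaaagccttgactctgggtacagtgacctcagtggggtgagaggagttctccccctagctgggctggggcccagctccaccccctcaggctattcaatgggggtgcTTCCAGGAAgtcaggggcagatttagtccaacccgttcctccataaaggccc
S100b: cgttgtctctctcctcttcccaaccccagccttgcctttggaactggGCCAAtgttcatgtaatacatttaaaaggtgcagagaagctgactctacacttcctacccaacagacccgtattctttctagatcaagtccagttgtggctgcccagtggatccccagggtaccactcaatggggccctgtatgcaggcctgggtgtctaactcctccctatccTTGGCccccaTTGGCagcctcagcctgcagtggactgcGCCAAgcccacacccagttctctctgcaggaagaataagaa

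The Gfap window held 1 STAT match, TTCCAGGAA, which began 2 bases before the annotated start, while the S100b window held 4 nuclear factor I half-sites and the Slc6a11 window held neither motif. Windows of 8 of the 10 genes were searched, 9 windows in all, since Aldoc had 2 starts. For the 10 genes, windows on chromosome 18, where Aqp4 lies, were left out, and no window was found for Sparcl1. STAT matches were found in windows of 2 of the 8 genes (Gfap and the downstream Aldoc start), nuclear factor I half-sites in those of 3 (S100b, Slc1a2 and Aldoc), and the SOX motif ACAAAG in none. No matches of these motifs overlapped. Among all 32851 promoter windows of the same length, not filtered by chromosome, 8.3% held the STAT motif, 46.7% the half-site and 18.7% the SOX motif. A match is a run of letters and not a shown binding site.

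Levels are in CPM (the reads of a gene, scaled to a fixed library total of assigned reads), and the depth, estimated from the steps between low values, ranged from 96.6 to 139.5 M reads in Upf2cKO libraries and from 101.8 to 155.9 M reads in controls. Upf2 itself had 135, 139, 142 and 154 CPM in the libraries labelled Upf2cKO, against 60.01, 58.1, 68.5 and 60.7 CPM in controls. It was thus 2.31-fold higher, not lower, in Upf2cKO (limma, adjusted p = 3.4e-08), but the value is for the whole gene, retained exons included, and is therefore no check of the deletion or of the labels. Directions are given for these libraries as labelled. Markers of cortical excitatory neurons were present in all 8 libraries, with the 8 genes of a list chosen after seeing the data summing to 2133 to 2608 CPM in Upf2cKO and 2804 to 3060 CPM in controls. A gene was tested if it reached 0.5 CPM in at least 4 libraries. Tests used limma on log2(CPM + 0.1), with p-values adjusted by the Benjamini-Hochberg method over all 16573 such genes and a threshold of 0.05. Folds are on that scale and are smaller than the true ratio where a gene is low.

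The first library of each group stood apart from the other 3 of its group, and these genes were among those that showed it. All 10 were highest in Upf2cKO 1 among the Upf2cKO libraries, and 7 of 10 were highest in control 1 among the controls. Of all tested genes, 30.4% were highest in Upf2cKO 1 and 33.1% in control 1 within their group. The ratio of Upf2cKO 1 to the mean of Upf2cKO 2 to 4 was 49.4 for Gjb6, 14.3 for S100b, 5.66 for Gfap, 4.29 for Aqp4 and 4.27 for Slc1a2, and it was 1.18 for Aldh1l1. In controls the ratio of library 1 to the others was 5.03 for Gjb6, 3.68 for S100b, 2.35 for Gfap, 1.58 for Aqp4 and 1.34 for Slc1a2, and it was 0.971 for Aldh1l1. Transcripts of mature brain moved in the same libraries. All 14 markers of myelinating oligodendrocytes were highest in library 1 of both groups, none of them was at 0 in all libraries, and they summed to 558 CPM in Upf2cKO 1 and 95.8 to 97.0 CPM in Upf2cKO 2 to 4, and to 156 CPM in control 1 and 80.7 to 87.4 CPM in controls 2 to 4. Of 20 markers of mature forebrain neurons, 18 were highest in Upf2cKO 1 and 14 in control 1 within their group. They summed to 1879 CPM in Upf2cKO 1 and 976 to 1060 CPM in Upf2cKO 2 to 4, and to 1399 CPM in control 1 and 1166 to 1257 CPM in controls 2 to 4. Over all tested genes, 335 were more than 2-fold above the other libraries of the group in Upf2cKO 1 and 54 in control 1, against 9 to 30 in any other library. Their part in the levels of the astrocyte genes was not tested, and the change of each of the 10 genes is therefore given with all 8 libraries and with the 6 that leave out Upf2cKO 1 and control 1. Values of other genes are from all 8 libraries unless stated.

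**Figure D1:**
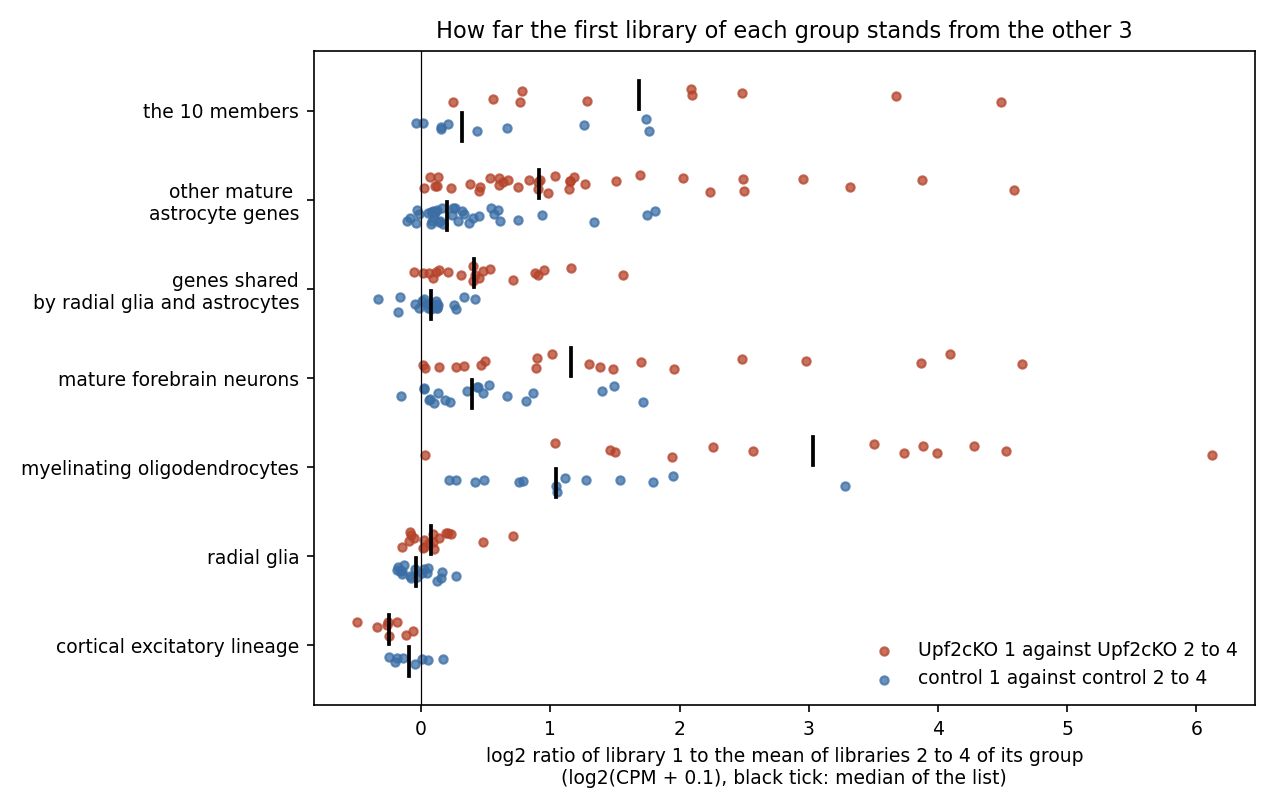
Log2 ratio of library 1 to the mean of libraries 2 to 4 of its group, on log2(CPM + 0.1), for Upf2cKO (red) and control (blue); each point is a gene, rows are gene lists and black ticks are list medians. The 10 astrocyte lineage genes and the lists of mature neurons and oligodendrocytes lie right of 0 in Upf2cKO 1, with Gjb6 at a log2 ratio of 4.49, while radial glia markers lie near 0.

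Across all 8 libraries, 9 of the 10 genes could be tested: 3 fell in Upf2cKO and 0 rose. Slc6a11, Sparcl1 and Aldh1l1 were the 3 that fell. Over all tested genes, 26.3% fell and 36.7% rose. Without Upf2cKO 1 and control 1, 7 of the 9 fell (Slc6a11, Gfap, Aqp4, Sparcl1, Aldoc, Aldh1l1 and Slc1a2) and 0 rose, where 27% of all tested genes fell and 36% rose. At an unadjusted limma p under the threshold, the counts were 4 lower and 0 higher with all 8 libraries, and 7 lower and 0 higher with 6. The median log2 change of the 9 tested genes was -0.32 with all libraries and -0.51 without the first of each group, against 0.04 and 0.03 over all tested genes. Every Upf2cKO value lay under every control value for 3 of the genes with all libraries, where this held for 22.3% of all tested genes, and for 7 of them with 6 libraries, where it held for 29.4%. On the deposited TPM values limma called the same 3 and 7 genes, while in TPM the groups did not overlap for 2 and 6 of them, since Aldh1l1 then overlapped with all libraries and Slc1a2 without the first. Over all genes the split moved to 7341 higher and 3328 lower in TPM, against 6082 higher and 4359 lower in CPM. In whole cortex, fewer cells that express these genes and less RNA per such cell cannot be told apart. Which cells the transcripts came from, astrocytes or others, was not tested. Whether the embryos of a group came from different litters is not in the labels, and the p-values reflect only how these libraries vary.

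**Figure D2:**
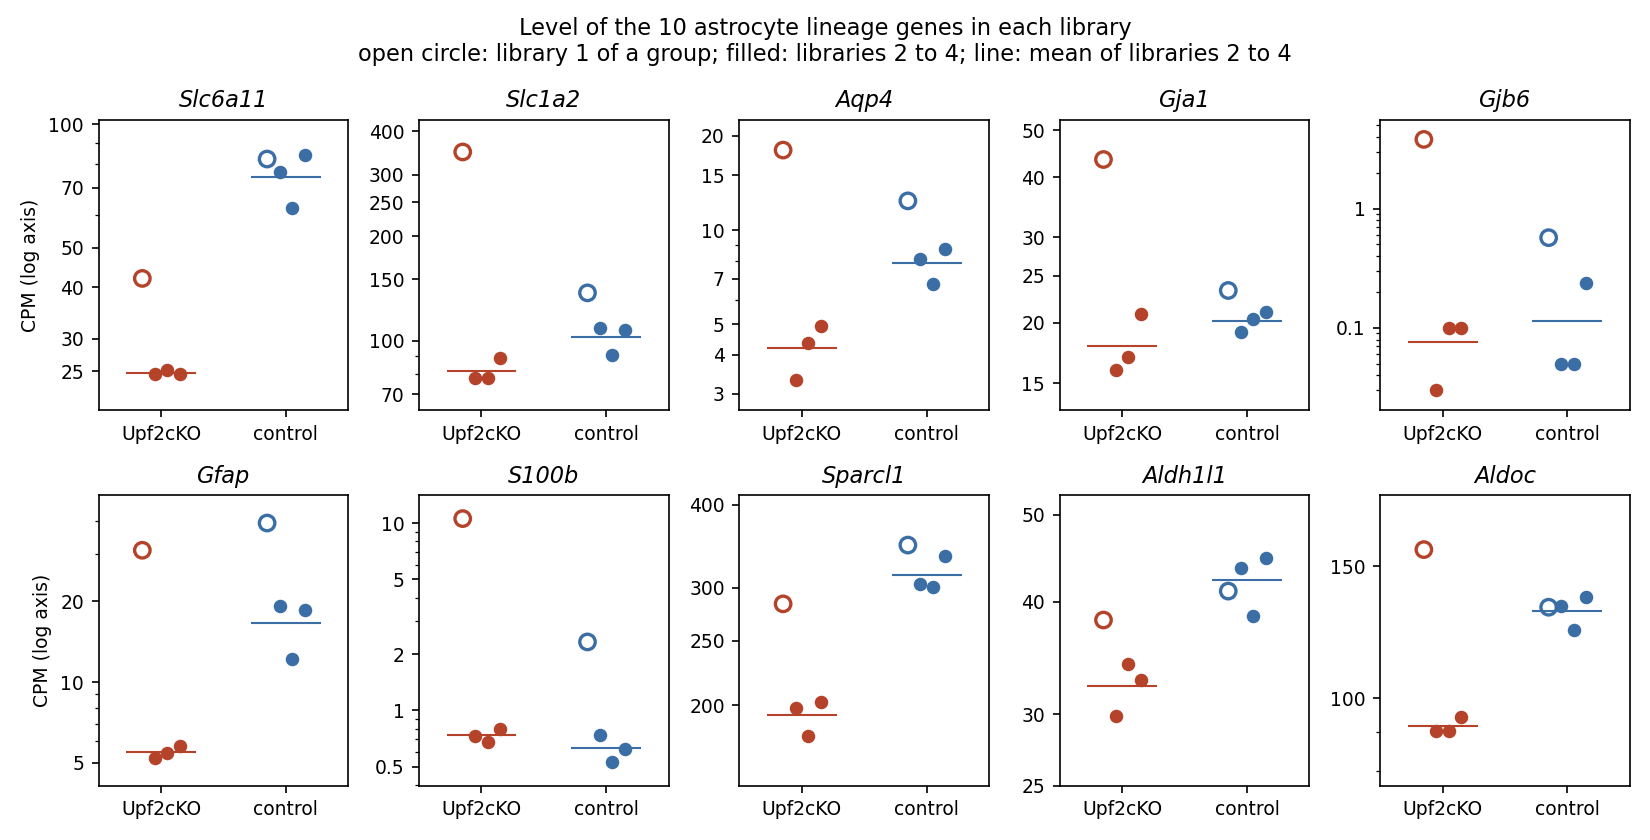
Level of each gene in CPM, on a log axis that does not start at 0, with Upf2cKO (red) left of control (blue); open circles are library 1, filled circles libraries 2 to 4, and lines the mean of libraries 2 to 4. Slc6a11 is lower in all 4 Upf2cKO libraries (24.5 to 42.1 CPM) than in all 4 controls (62.5 to 84.0 CPM), and Upf2cKO 1 is the highest Upf2cKO library in all 10 panels.

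Of the transporters that clear transmitter from the synapse, Slc6a11 fell in both comparisons and Slc1a2 without the first libraries. Slc6a11 encodes GAT3, the astrocytic GABA transporter. It had 42.1, 24.5, 25.1 and 24.6 CPM in Upf2cKO libraries 1 to 4, against 82.3, 76.6, 62.5 and 84.0 CPM in controls 1 to 4. Even the high Upf2cKO 1 was under every control. The fall was 2.68-fold with all libraries (log2 change -1.42 ± 0.17 SE, n = 4 each; limma, adjusted p = 2.8e-05) and 2.97-fold without the first libraries (-1.57 ± 0.09; adjusted p = 1.0e-07).

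Slc1a2 encodes GLT-1, the main glutamate transporter of mature astrocytes. It had 349, 78.1, 78.2 and 89.0 CPM in Upf2cKO, against 137, 109, 90.6 and 107 CPM in controls. Upf2cKO 1 was the highest of the 8 libraries and the other 3 Upf2cKO libraries were the lowest, so the groups overlapped only through the first library. With all libraries the log2 change was 0.10 ± 0.41 SE (adjusted p = 0.85), and without the first of each group Slc1a2 fell 1.248-fold (-0.32 ± 0.08; adjusted p = 0.0037, or 0.057 with no filter on low values). Slc1a3 encodes GLAST, the glutamate transporter that radial glia already express. It fell 1.39-fold with all libraries, to 160 ± 30.1 CPM in Upf2cKO against 221 ± 11.1 CPM in controls (SD, n = 4 each; adjusted p = 0.0025). Slc1a1, the neuronal glutamate transporter EAAC1, fell 1.47-fold, with 38.9 ± 2.96 CPM in Upf2cKO and 57.3 ± 3.25 CPM in controls (adjusted p = 1.7e-05).

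Aqp4, on chromosome 18, encodes the water channel of astrocyte end-feet, the processes that wrap vessels. It had 18.0, 3.33, 4.36 and 4.93 CPM in Upf2cKO, against 12.4, 8.12, 6.71 and 8.69 CPM in controls. Libraries 2 to 4 of Upf2cKO were all under the lowest control, while Upf2cKO 1 was above the highest. The log2 change was -0.54 ± 0.43 SE with all libraries (adjusted p = 0.31), and Aqp4 fell 1.86-fold without the first libraries (-0.89 ± 0.14; adjusted p = 0.00029). Of 9 listed genes of the complex that anchors this channel at the end-foot, 3 rose and 2 fell with all libraries, and 2 rose and 2 fell without the first, shares near those of all tested genes (36.7% higher and 26.3% lower with all libraries). Agrn, a proteoglycan of the vessel basement membrane that is also made by neurons, was 1.35-fold higher (adjusted p = 0.00011). Dag1, the dystroglycan that binds it, was 1.27-fold lower (adjusted p = 1.6e-05), and Dtna, α-dystrobrevin of astrocytes, was 1.44-fold lower (adjusted p = 0.0041).

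The gap-junction genes couple astrocytes into networks. Gja1, connexin 43, had 43.5, 15.9, 17.0 and 20.8 CPM in Upf2cKO, against 23.3, 19.1, 20.3 and 21.01 CPM in controls. Libraries 2 and 3 of Upf2cKO lay under every control, library 4 among them and library 1 above. The log2 change was 0.09 ± 0.26 SE (adjusted p = 0.78) with all libraries and -0.18 ± 0.09 (adjusted p = 0.12, or 0.047 with a median-of-ratios rescaling) without the first, with 95% intervals of -0.48 to 0.67 and of -0.38 to 0.03. Neither passed the threshold as fitted, and the second interval leaves room for a fall of the size seen for Slc1a2.

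Gjb6, connexin 30, is known to appear only in the postnatal weeks. It had 3.79, 0.03, 0.10 and 0.10 CPM in Upf2cKO, against 0.57, 0.05, 0.05 and 0.24 CPM in controls, which stands for about 366, 3, 10 and 14 reads in Upf2cKO and about 58, 8, 7 and 37 reads in controls. Upf2cKO 1 was the highest by far and control 1 the next, and the other 6 libraries overlapped. Gjb6 did not reach the level required for the test. Fitted with limma without that filter, its log2 change was 0.50 ± 0.97 SE (adjusted p = 0.73) with all libraries and -0.19 ± 0.39 (adjusted p = 0.77) without the first. Neither passed the threshold, and libraries 2 to 4 of each group held only about 3 to 37 reads. Gjb2, connexin 26, the relative nearest to it, was at 0 to 0.16 CPM in Upf2cKO and 0 to 0.19 CPM in controls and was not tested either.

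Gfap and S100b are the classical protein markers of astrocytes. Gfap, the intermediate filament of mature and reactive astrocytes, had 31.0, 5.22, 5.45 and 5.79 CPM in Upf2cKO, against 39.2, 19.3, 12.2 and 18.53 CPM in controls. Both first libraries were the highest of their group. Libraries 2 to 4 of Upf2cKO were the 3 lowest of all, under every control. With all libraries the log2 change of -1.25 ± 0.54 SE did not pass the threshold (adjusted p = 0.066, or 0.049 with a median-of-ratios rescaling), and without the first of each group Gfap fell 2.94-fold (-1.56 ± 0.15; adjusted p = 5.1e-06). Vim and Nes, the filament genes of radial glia, also fell, Vim 1.13-fold (216 ± 8.43 CPM in Upf2cKO, 244 ± 16.1 CPM in controls; adjusted p = 0.014) and Nes 1.55-fold (131 ± 5.19 CPM in Upf2cKO, 204 ± 5.72 CPM in controls; adjusted p = 2.5e-07).

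S100b encodes a calcium-binding protein of maturing astrocytes and of some oligodendrocyte precursors. It had 10.6, 0.73, 0.68 and 0.80 CPM in Upf2cKO, against 2.32, 0.74, 0.53 and 0.62 CPM in controls. The high first libraries aside, the groups overlapped near the level required for the test. The log2 change was 0.69 ± 0.78 SE (adjusted p = 0.46) with all libraries and 0.20 ± 0.17 (adjusted p = 0.32; 95% interval -0.18 to 0.59) without the first, so S100b was the 1 tested gene whose estimate was above 0 in both comparisons. With only Upf2cKO 1 left out, the estimate for S100b was -0.23 (limma, adjusted p = 0.61). Its gene overlaps Dip2a on the other strand. S100a10, a relative that binds annexin and is expressed well outside glia, fell 2.51-fold, with 17.0 ± 0.623 CPM in Upf2cKO and 43.0 ± 4.48 CPM in controls (adjusted p = 7.8e-08).

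Sparcl1 encodes hevin, a protein that astrocytes secrete and that promotes synapse formation. It had 284, 199, 180 and 202 CPM in Upf2cKO, against 348, 304, 301 and 335 CPM in controls. All Upf2cKO libraries were under all controls. It fell 1.51-fold with all libraries (log2 change -0.59 ± 0.12 SE; adjusted p = 0.0013) and 1.62-fold without the first (-0.69 ± 0.06; adjusted p = 2.0e-06). Sparc, the relative that counters hevin in culture, fell 1.23-fold (120 ± 15.1 CPM in Upf2cKO, 146 ± 7.09 CPM in controls; adjusted p = 0.0076). Of 10 tested of 11 listed synapse factors, Sparc included, 3 rose and 3 fell with all libraries, and 3 rose and 2 fell without the first, near the shares of all tested genes. Thbs1, a thrombospondin, was 1.42-fold higher (76.7 ± 7.42 CPM in Upf2cKO, 54.0 ± 2.96 CPM in controls; adjusted p = 9.6e-05), and Gpc6, a glypican, was 1.38-fold lower (6.44 ± 0.387 CPM in Upf2cKO, 8.89 ± 0.232 CPM in controls; adjusted p = 0.00015). Bdnf, which is made mainly by neurons, was 2.14-fold higher (4.89 ± 1.55 CPM in Upf2cKO, 2.17 ± 0.2301 CPM in controls; adjusted p = 0.00033).

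Aldh1l1 and Aldoc encode metabolic enzymes. Aldh1l1, the folate enzyme used as a marker of all astrocytes, had 38.2, 29.9, 34.2 and 32.8 CPM in Upf2cKO, against 41.1, 43.6, 38.5 and 44.8 CPM in controls. The highest Upf2cKO value was just under the lowest control, and Aldh1l1 was the member least raised in Upf2cKO 1. It fell 1.247-fold with all libraries (log2 change -0.32 ± 0.08 SE; adjusted p = 0.0037) and 1.31-fold without the first (-0.39 ± 0.07; adjusted p = 0.00067). Aldh1l2, its mitochondrial relative, was 1.32-fold higher (106 ± 6.60 CPM in Upf2cKO, 80.7 ± 1.13 CPM in controls; adjusted p = 3.0e-05). Aldh1l1 was also the only one of the 10 genes with a transcript annotated as a target of nonsense-mediated decay, 1 of its 7, and the gene-level values do not separate transcripts.

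Aldoc, the brain aldolase of glycolysis, had 158, 90.5, 90.4 and 94.5 CPM in Upf2cKO, against 132, 133, 123 and 136 CPM in controls. Libraries 2 to 4 of Upf2cKO were close together and under every control, and Upf2cKO 1 was above every control. The change did not pass the threshold with all libraries (-0.32 ± 0.15 SE; adjusted p = 0.094, or 0.041 with a median-of-ratios rescaling), and Aldoc fell 1.43-fold without the first (-0.51 ± 0.05; adjusted p = 6.0e-06). Aldoa, the aldolase of most tissues, had 128 ± 44.8 CPM in Upf2cKO and 104 ± 12.1 CPM in controls (log2 change 0.25 ± 0.18 SE; adjusted p = 0.25). That symbol had more than 1 identifier, and the most abundant was used. Of all 39 relatives of the 10 genes, 34 could be tested, and 5 rose and 17 fell with all libraries, and 6 rose and 17 fell without the first. Over all tested genes, 36.7% rose and 26.3% fell with all libraries, and 36% rose and 27% fell without the first.

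**Figure D3:**
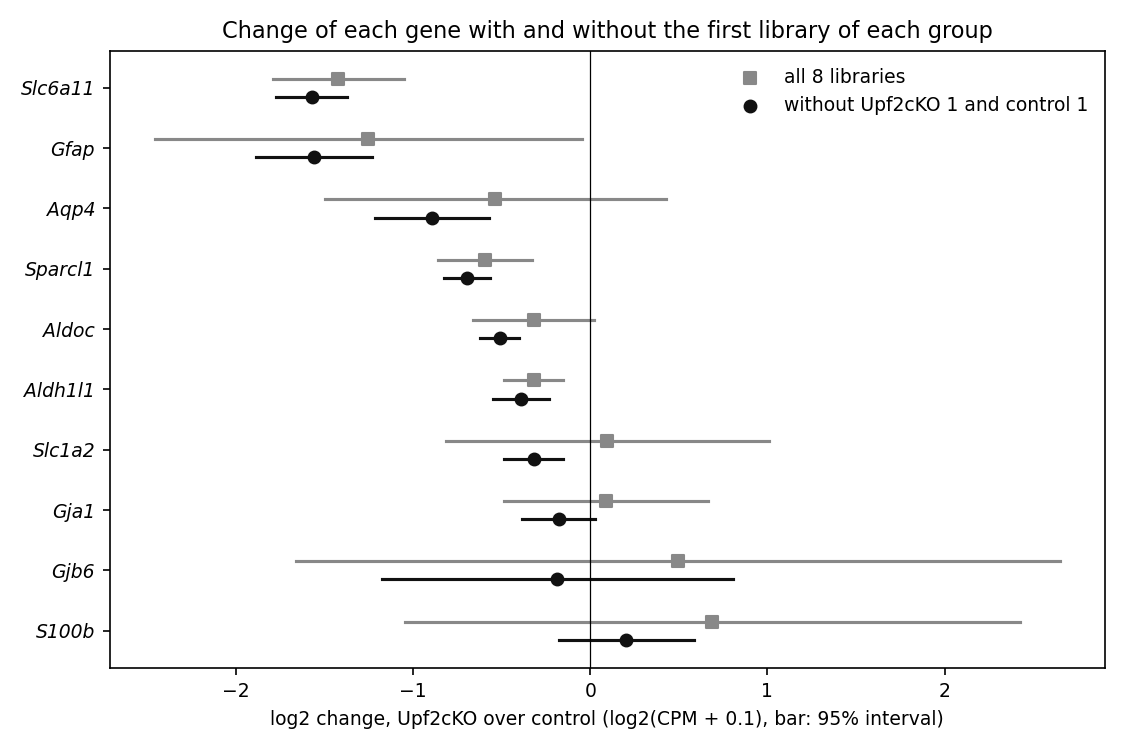
Log2 change of each gene, Upf2cKO over control, on log2(CPM + 0.1), with 95% intervals, from all 8 libraries (grey squares) and without Upf2cKO 1 and control 1 (black circles); Gjb6 is from the fit without a filter. The intervals of Slc6a11, Sparcl1 and Aldh1l1 lie left of 0 in both, and Slc1a2 is at 0.10 with all libraries and at -0.32 without the first.

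The order of the genes by level is given in TPM, which is also divided by gene length, over libraries 2 to 4 of each group. In controls the order was Sparcl1 (421 ± 21.2 TPM), Aldoc (158 ± 6.15), Slc6a11 (58.1 ± 7.84), Aldh1l1 (37.0 ± 2.47), Slc1a2 (30.7 ± 2.71), Gfap (15.6 ± 3.50), Gja1 (7.76 ± 0.365), Aqp4 (4.96 ± 0.584), S100b (1.68 ± 0.267) and Gjb6 (0.173 ± 0.162; SD, n = 3). No neighbours in this order overlapped. In Upf2cKO Slc6a11 stood in place 5 instead of 3, at 19.9 to 20.8 TPM against 49.5 to 64.9 TPM in controls, behind Aldh1l1 (27.1 to 31.7 TPM) and Slc1a2 (24.3 to 28.2 TPM), whose ranges overlapped in Upf2cKO. Gfap stood behind Gja1, with 5.07 to 5.71 TPM in Upf2cKO against 11.6 to 18.0 TPM in controls, and Aqp4 (2.19 to 3.29 TPM) and S100b (1.91 to 2.23 TPM) overlapped in Upf2cKO.

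Of 17 gliogenic transcription factors, 11 fell and 0 rose with all libraries and likewise without the first, also at an unadjusted limma p under the threshold, and the median log2 change was -0.40 and -0.43. Among all tested genes, 26.3% fell and 36.7% rose with all libraries, and 27% fell and 36% rose without the first. Nfix, a nuclear factor I gene, fell 1.72-fold, with 783 ± 92.8 CPM in Upf2cKO and 1344 ± 81.4 CPM in controls (SD, n = 4 each; adjusted p = 1.2e-05). Id2, an inhibitor of basic helix-loop-helix factors induced by BMP, fell 1.501-fold (265 ± 20.8 CPM in Upf2cKO, 397 ± 17.7 CPM in controls; adjusted p = 9.5e-06). Its relatives Id1, Id3 and Id4 on the same list, named after their values were seen, did not pass the threshold (limma, adjusted p = 0.12, 0.42 and 0.91). Lhx2, a homeobox gene of cortical progenitors that restrains astrocyte production in the hippocampus, fell 1.48-fold (107 ± 7.26 CPM in Upf2cKO, 159 ± 9.30 CPM in controls; adjusted p = 1.1e-05). Sox9 and Nfia, the factors most closely tied to the onset of gliogenesis and named here after their values were seen, fell 1.36-fold (19.7 ± 0.647 CPM in Upf2cKO, 26.8 ± 1.83 CPM in controls; adjusted p = 7.4e-05) and 1.23-fold (112 ± 10.9 CPM in Upf2cKO, 138 ± 7.89 CPM in controls; adjusted p = 0.0029). These factors are shared by progenitors: 3 of the 17 are also on the list of radial glia markers.

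Among 29 tested of 31 signalling genes that act on this switch, 5 rose and 13 fell in both comparisons (median log2 change -0.15 and -0.17). For all tested genes, 36.7% rose and 26.3% fell with all libraries, and 36% rose and 27% fell without the first. Jak2, a kinase that passes cytokine signals to STAT proteins, was 1.55-fold higher (192 ± 12.3 CPM in Upf2cKO, 124 ± 7.995 CPM in controls; adjusted p = 4.4e-06). Jak1, another such kinase and named after its value was seen, was 1.28-fold lower (81.3 ± 6.53 CPM in Upf2cKO, 104 ± 1.67 CPM in controls; limma, adjusted p = 0.00020). Egfr and Fgfr1, growth factor receptors of glial progenitors, were 1.73-fold lower (20.2 ± 0.667 CPM in Upf2cKO, 35.0 ± 2.87 CPM in controls; adjusted p = 1.5e-06) and 1.52-fold lower (99.4 ± 1.59 CPM in Upf2cKO, 152 ± 16.7 CPM in controls; adjusted p = 2.7e-05). Receptors and kinases of one pathway did not move together: of the cytokine receptor subunits Il6st and Cntfr, named after their values were seen, Il6st was 1.35-fold lower (adjusted p = 0.00046) and Cntfr 1.34-fold higher (adjusted p = 0.00022).

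Other genes of mature astrocytes behaved like the 10, in that the count depended on the first libraries. Of 36 listed, 34 were tested, with 4 higher and 7 lower from all libraries, and 4 higher and 17 lower without the first. The median log2 change was -0.10 and -0.30. Shares over all tested genes were 36.7% higher and 26.3% lower with all libraries, and 36% higher and 27% lower without the first. Of these 36 genes, 34 were higher in Upf2cKO 1 than in any other Upf2cKO library and 26 were higher in control 1 than in any other control. This held for 30.4% and 33.1% of all tested genes. Mfge8, a secreted protein that marks cells for engulfment, fell 1.94-fold (59.3 ± 10.01 CPM in Upf2cKO, 115 ± 9.99 CPM in controls; adjusted p = 1.6e-05). Cbs, an enzyme of sulfur amino acids, fell 1.70-fold (12.1 ± 2.47 CPM in Upf2cKO, 20.5 ± 1.39 CPM in controls; adjusted p = 0.00021), and Plcd4, a phospholipase, was 1.66-fold higher (9.26 ± 0.439 CPM in Upf2cKO, 5.56 ± 0.606 CPM in controls; adjusted p = 3.2e-05). Ntsr2 and Dio2 were named after their values were seen. Ntsr2, a neurotensin receptor of astrocytes, had 4.96, 0.33, 0.55 and 0.37 CPM in Upf2cKO, against 3.58, 2.16, 2.25 and 2.80 CPM in controls. Upf2cKO 1 was above every control and the other 3 Upf2cKO libraries were under all of them. Its log2 change of -1.60 ± 0.66 SE did not pass the threshold with all libraries (adjusted p = 0.053), and it fell 4.89-fold without the first (adjusted p = 1.6e-06). Dio2, which activates thyroid hormone in astrocytes, had 17.5, 7.61, 8.79 and 9.15 CPM in Upf2cKO, against 30.03, 24.4, 20.7 and 27.0 CPM in controls, without overlap. It fell 2.47-fold with all libraries (adjusted p = 0.00045) and 2.79-fold without the first (adjusted p = 4.5e-07).

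Genes that astrocytes share with radial glia were also lower. Of 20 listed, 19 were tested, and 12 fell with all libraries and 16 without the first, with 0 higher in either comparison, also at an unadjusted limma p under the threshold. Their median log2 change was -0.41 and -0.57. Across all tested genes, 26.3% fell and 36.7% rose with all libraries, and 27% fell and 36% rose without the first. Fabp7, a fatty acid binding protein of radial glia, fell 1.59-fold (358 ± 28.0 CPM in Upf2cKO, 567 ± 23.8 CPM in controls; adjusted p = 3.4e-06), and Dbi, which binds acyl-CoA, fell 1.77-fold (75.8 ± 11.7 CPM in Upf2cKO, 133 ± 6.20 CPM in controls; adjusted p = 1.7e-05). The 18 markers of radial glia, 8 of them on this list too, gave 13 lower and 0 higher, and summed to 2643 to 2861 CPM in Upf2cKO and 3430 to 3507 CPM in controls. Their part in the fall of the astrocyte genes was not tested.

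Of 27 listed genes of reactive astrocytes, 18 were tested, and 4 rose and 5 fell in both comparisons, where 36.7% of all tested genes rose and 26.3% fell with all libraries. Serping1, a complement inhibitor, was 1.53-fold higher (6.21 ± 0.306 CPM in Upf2cKO, 4.03 ± 0.389 CPM in controls; adjusted p = 0.00012). Amigo2, an adhesion gene, fell 1.63-fold (4.03 ± 0.289 CPM in Upf2cKO, 6.66 ± 0.723 CPM in controls; adjusted p = 8.4e-05), and Ptx3, a pentraxin, fell 1.39-fold (14.1 ± 0.812 CPM in Upf2cKO, 19.7 ± 0.269 CPM in controls; adjusted p = 2.5e-05). Gfap, also a gene of reactive astrocytes, was itself lower without the first libraries, as above. Of 12 microglial markers, 9 rose and 0 fell with all libraries, and 9 rose and 1 fell without the first (2 lower at an unadjusted p). All 12 were highest in library 1 of both groups. They summed to 227 CPM in Upf2cKO 1 and 154 to 185 CPM in Upf2cKO 2 to 4. In controls the sums were 88.1 CPM in control 1 and 63.1 to 76.8 CPM in controls 2 to 4. Of 12 endothelial markers 9 fell and 0 rose, with sums of 204 to 226 CPM in Upf2cKO and 261 to 282 CPM in controls, and of 9 tested markers of oligodendrocyte precursors 4 fell and 0 rose, with sums of 233 to 283 CPM in Upf2cKO and 295 to 360 CPM in controls. With all libraries, in each of these lists and in that of radial glia, the direction with 0 calls also had 0 genes at an unadjusted limma p under the threshold. The part of these cells in the levels of the astrocyte genes was not tested.

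**Figure D4:**
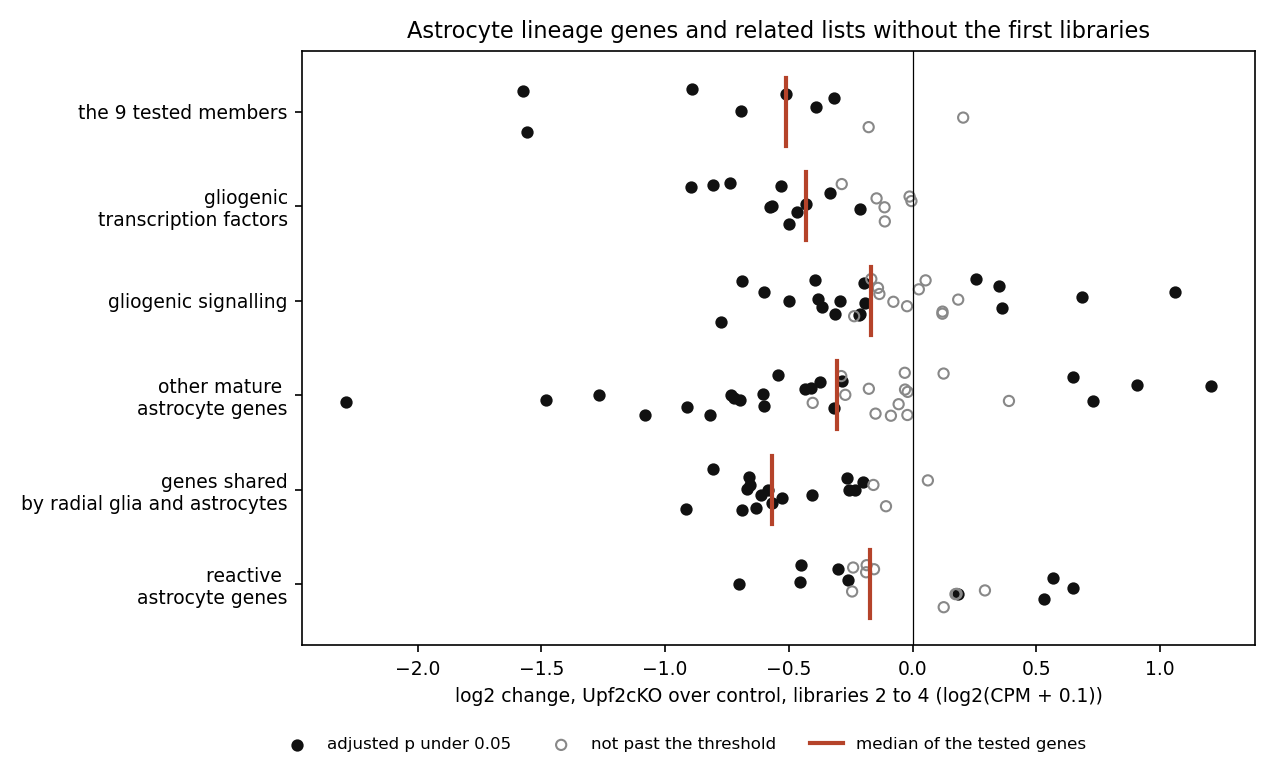
Log2 change, Upf2cKO over control, on log2(CPM + 0.1), from libraries 2 to 4 of each group; each point is a tested gene, filled where the adjusted limma p is under 0.05, and red bars are list medians. Of the 6 rows plotted, the medians run from -0.57 for genes shared with radial glia and -0.51 for the 9 tested members to -0.17 for gliogenic signalling and for reactive astrocyte genes.

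The genes whose profile over the 8 libraries was nearest to each of the 10 were found by the root mean square difference of centred log2(CPM + 0.1), among 11609 genes of at least 5 CPM. For Slc6a11 these were Zdhhc23 (difference 0.10), Emp2 (0.11) and Cobl (0.12), and for Sparcl1 they included Gng7 (0.03) and Atp1b2 (0.05), a sodium pump subunit of astrocytes. Aldh1l1 was nearest to Snap47, Pgam1 and Ndufa11, and Aldoc to Ndrg4, Tns3 and Tspan7. The nearest to Slc1a2 were Tuba4a, Cnp and Kcnab2, to Aqp4 Vsnl1, Tppp and Ak5, and to Gja1 Nhsl2, Mbnl2 and Parm1. S100b was nearest to Ddn, Lynx1 and Plekhb1, Gfap to Nrgn, Ptk2b and Phyhip, and Gjb6 to Fam107a, Ddn and Rasgrp1. Of these, Nrgn and Ddn are on the list of mature forebrain neuron markers and Cnp is on that of myelinating oligodendrocytes. Fam107a and Atp1b2 are on that of other mature astrocyte genes. All of these lists were high in the first libraries. Without the first library of each group the nearest gene to Gfap was Slc6a11 itself (difference 0.11), followed by Emp2 and Dio2, so that the pair shared a profile over those 6 libraries. Each of these distances is a description over libraries that share the same groups and the same first-library difference.

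In the annotation of build mm10, Slc6a11 spans 114131241 to 114249952 on chromosome 6, plus strand, where Aldh1l1 spans 90486427 to 90600203, also on the plus strand. Gfap spans 102887336 to 102900912 on the minus strand of chromosome 11, and Aldoc 78322968 to 78327781 on its plus strand. The Gfap promoter window shown above, set by the RefSeq start, lies inside the Gfap span given here. S100b spans 76253853 to 76261159 and Gja1 56377330 to 56402513 on chromosome 10, both on the plus strand. Slc1a2 spans 102658659 to 102790784 on chromosome 2 (plus strand), Sparcl1 104079111 to 104113733 on chromosome 5 (minus strand) and Gjb6 57123303 to 57133611 on chromosome 14 (minus strand). Of the 10 genes, Gja1, Aldoc and Gjb6 overlap no other annotated gene. The other 7 overlap at least 1 on the opposite strand, and Aldh1l1 overlaps 2 (Gm45901 and Gm44236) on its own strand as well. The counting of reads in such overlaps, and the use of strand in it, are unknown here, so the values of these 7 genes are uncertain to that extent.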

How the data were processed

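Total RNA from cortex was sequenced in 4 libraries labelled Upf2cKO and 4 control libraries. Per the labels' protocols, the kit was a stranded one for total RNA, yet the molecule is given as polyA RNA, so how RNA was selected is unclear. STAR 2.7.11a and fastp 0.23.4 are named in the submitters' processing notes, with Picard 3.1.1, DESeq2 and build mm10, without roles. No counting tool or annotation is stated. The authors deposited a CPM table, relative to the reads assigned to genes, and a TPM table, divided by gene length as well; neither holds counts, and both are rounded to 2 decimals. Since CPM columns have a fixed total, a rise in many genes lowers the values of the others.

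Reads per library were estimated from the steps between low deposited TPM values of short genes. Of 788 to 993 values per library, 99.9% to 100% came out whole within 0.15 reads. Since 2 decimals are close to 1 read, whole counts could not be had for every gene, and a count test was left out. Precision was taken from the spread between libraries.

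Identifiers were matched to GENCODE symbols (55227 of 55487). The test was limma's (3.58.1, in R 4.3.3), two-sided, on log2(CPM + 0.1), fitted with a trend on mean level and without covariates to the 16573 genes that reached 0.5 CPM in 4 or more of the 8 libraries, with Benjamini-Hochberg adjustment over them. The same genes were tested on 6 libraries, without Upf2cKO 1 and control 1. Adjusted p-values are limma's. The scripts were tested on simulated data. Alternatives were a pseudocount of 1, no filter, a filter of 2 CPM, the deposited TPM, a median-of-ratios rescaling, a replicate block and leaving out libraries.

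The members, the gene lists and the marker lists were chosen with earlier results of these data known. Named beside the 10 genes and Upf2 were, from each list, up to 3 called genes of smallest adjusted p, the nearest relative of each gene, and for each gene the 3 genes of nearest profile; exceptions are stated, and some named items are not reported here. Markers of the diencephalon (2 higher and 4 lower of 8 tested), the hindbrain and cerebellum (5 of 12 at 0 in every library), the choroid plexus and ependyma (sums of 14.8 to 300 CPM in Upf2cKO and 12.3 to 139 CPM in controls, highest in library 4 of each) and meninges (2 higher and 0 lower of 9 tested) were also counted.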

Additional observations from a re-analysis of the deposited data

Results flagged for a closer look

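In 20 groups of 4 libraries, the gap between the most distant library and its nearest neighbour was divided by the range of the group and set against Dixon's 95% critical value for 4 samples. Chance gives about 1 such library in 20 independent groups. Here 8 were found, but the 10 genes share the same 8 libraries, and the first library of each group was known to stand apart, so this count is a description only. In Upf2cKO the distant library was Upf2cKO 1 in all 7 cases, and it was the highest each time. The share of the range was 0.988 for S100b (10.6 CPM), 0.981 for Gjb6 (3.79 CPM), 0.978 for Gfap (31.0 CPM), 0.967 for Slc6a11 (42.1 CPM), 0.96 for Slc1a2 (349 CPM), 0.939 for Aldoc (158 CPM) and 0.891 for Aqp4 (18.0 CPM). In controls it was 0.883 for S100b, for which control 1 was the highest (2.32 CPM). Markers of myelinating oligodendrocytes, of mature neurons and of microglia were high in the same 2 libraries, and their part was not tested.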

How the results depend on the processing

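The number of the 10 genes that fell with all 8 libraries was 3, 5 with a median-of-ratios rescaling, 5 with the replicate block, 7 without Upf2cKO 1 and control 1, and 3 to 7 when each library was left out in turn, the 7 without Upf2cKO 1. The number that rose was 0 under each of these. Slc1a2 reversed, with a log2 change of 0.10 with all libraries, -0.43 without Upf2cKO 1 (adjusted p = 0.0055) and -0.32 without Upf2cKO 1 and control 1; leaving out each library in turn gave -0.43 to 0.29. Gfap passed the threshold with the rescaling (-1.31, adjusted p = 0.049) and with the block (-1.25, adjusted p = 0.00064), and Aldoc likewise (-0.37, adjusted p = 0.041, and -0.32, adjusted p = 0.041); without Upf2cKO 1, Gfap (-1.87), Aldoc (-0.52) and Aqp4 (-1.06) passed it. Without Upf2cKO 1 and control 1, 7 genes fell, 6 with no filter on low values (Slc1a2, adjusted p = 0.057) and 8 with the rescaling (Gja1, -0.23, adjusted p = 0.047) or without Upf2cKO 4 (Gja1, -0.29, adjusted p = 0.0030). Slc6a11, Sparcl1 and Aldh1l1 kept their direction and call under every alternative run. Replicate numbers were not taken as pairs, since the correlation of same-numbered libraries was 0.42, 0.05, 0.52 and 0.19 and not every library correlated best with its own number; over all genes the block gave 6126 higher and 4423 lower. Of the lists, other mature astrocyte genes fell in 13 cases with the block and 18 without Upf2cKO 1, against 7; genes shared with radial glia in 7 without Upf2cKO 4 and control 4, against 12; synapse factors in 6 with the rescaling, against 3; and relatives rose in 3 with a filter of 2 CPM and 8 with the block, against 5. Over all genes, 4864 to 7515 rose and 3328 to 5257 fell, and no alternative moved the median log2 change by more than 0.1. The cause of these differences was not tested. Outside the first libraries, S100b was near the 0.5 CPM floor and Gjb6 under it, and the part of this in their estimates was not tested. The counts rest on 2 to 4 libraries a group.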
